A study of Mus musculus with 48 samples.

Results

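Chromatin accessibility was described at the genes for the transcription factors Klf2, Klf3, Foxo1, Foxo3 and Foxp1, the sphingosine-1-phosphate receptors S1pr1 and S1pr5, and Cd69. These genes act in T cell quiescence and in the exit of T cells from tissue. A peak of the deposited table was assigned to a gene when it overlapped the protein-coding gene body, and otherwise to the nearest gene body within 100 kb. By this rule 109 of 53868 peaks belonged to the 8 genes, 67 of them inside a gene body and 42 outside. Whether a peak acts on the gene it was assigned to was not tested. Foxp1 held 46 peaks, Foxo1 19, S1pr1 15, Cd69 12, Klf2 5, Klf3 5, Foxo3 5 and S1pr5 2. Peaks are numbered here along each gene's chromosome from the lowest coordinate, and coordinates are GRCm38.

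Naive and memory-like T cells stay quiescent and recirculate under FOXO1, which acts in the nucleus until AKT signalling sends it to the cytoplasm, and under KLF2, a zinc finger factor that activates S1pr1. S1PR1 senses sphingosine-1-phosphate, which is high in blood and lymph, and carries T cells out of tissue, whereas CD69 binds S1PR1 at the membrane, has it internalized and so retains the cell. FOXP1 is a forkhead repressor that holds naive T cells in quiescence, FOXO3 is a relative of FOXO1, KLF3 is a repressor that binds the same CACCC letters as KLF2, and S1PR5 is a second egress receptor of effector and NK cells.

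ATAC-seq reads chromatin opening from where a transposase, Tn5, can cut and add sequencing adapters. Donor cells were naive-like splenic OT-1 CD8 T cells, which recognise an ovalbumin peptide, and all of them expressed Cas9 and the CD45.1 allele. Each cell carried 1 guide RNA from a lentivirus with an ametrine reporter, against Zfp219 or Dusp5 (labelled as knockouts) or as the control called OTC. Cells were given to aged or young mice 1 day before the B16-OVA melanoma, and reporter-positive cells were sorted from tumours on day 15. The 4 sorted states are Tprog (Slamf6+ Tim-3-, labelled progenitor exhausted), Ttran (positive for both, labelled transitory and effector-like), Tterm (Slamf6- Tim-3+, labelled terminally exhausted) and Ttad (negative for both, labelled age-associated dysfunctional). The 48 libraries form 21 groups. Aged hosts have 2 libraries for each of 3 guides in each of 4 states. Young hosts have 2 libraries per guide for Tprog and 3 each for Ttran and Tterm, with no young Ttad among the libraries analysed here. A library pools sorted cells of several mice, 5000 to 50000 cells for each combination, so p-values measure the spread between pools. No host age in weeks, sex or strain and no editing rate was given in the sources used here. In the table's header the library numbers start again within each age, and whether both ages were prepared and sequenced together was not given in the sources used here.

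Values are reads per peak divided by 1 factor per library, called normalized reads here. Reads in peaks were 5638413 to 16159054 per aged library and 6589023 to 29942755 per young library. The strongest peaks of all 6 CD8 T cell marker genes averaged 702 to 1455 normalized reads. No peak was assigned to the B cell genes Cd79a and Ms4a1, the myeloid genes Lyz2, Csf1r and Adgre1, the melanoma genes Tyr and Dct or the fibroblast gene Col1a2. Other markers of these lists did have peaks, among them Pax5 (strongest peak 210.6), Spi1 (224), Itgam (422), Mitf (292), Pmel (527), Mlana (168), Sox10 (209.9), Col1a1 (287) and Pdgfrb (31.3), as did the CD4 genes Cd4 (349.5) and Zbtb7b (784). The NK genes Ncr1 (11.8) and Klrb1c (681) and the endothelial genes Pecam1 (1021), Cdh5 (16) and Kdr (34.1) had peaks as well. The summed myeloid list ran from 1300.4 to 1634 in aged and from 1658 to 2094 in young libraries, with no overlap, and its part in the differences between ages was not tested. The summed CD4 list was 1233 and 1263 in aged OTC Tprog against 1707 and 1733 in Tterm, and 1290.2 to 1473 against 1714 to 1760.0 in young cells. The summed B cell list, which is Pax5 alone, was 514 to 523 in aged Tprog against 285 to 337 in aged Tterm and 516 to 589 in young Tprog against 279.9 to 309 in young Tterm. The NK list was 2651 to 2744 in aged Tprog against 2211 to 2437 in aged Tterm and 2700.1 to 2772 in young Tprog against 2248 to 2422 in young Tterm. The melanoma list was 1344 to 1382 in aged Tprog against 1248 to 1256 in aged Tterm and 1568 to 1633 in young Tprog against 1269 to 1328 in young Tterm. The endothelial list was 2736 to 2851 in aged Tprog against 3695 to 3817 in aged Tterm and 2809.8 to 2964 in young Tprog against 3171 to 3281 in young Tterm. The CD8 list was 15336 to 15615 in aged Tprog against 14831 to 14983 in aged Tterm and 17167 to 17265 in young Tprog against 15580.2 to 15952 in young Tterm, and the fibroblast list 338 to 341 in aged Tprog against 352 to 403 in aged Tterm and 284 to 311 in young Tprog against 344 to 354 in young Tterm. The part of these lists in the differences between states was not tested. The accessibility of a gene does not report a guide's cut. In Zfp219 cells 0 of 2 Zfp219 peaks were called at either age, against 25.8% of all peaks in aged and 7.07% in young cells. In Dusp5 cells 2 of 17 Dusp5 peaks were called in aged and 3 of 17 in young cells, against 12.2% and 3.82% of all peaks. By limma the strongest Dusp5 peak was -0.32 (SE 0.04, adjusted p = 1.12e-09) in aged and -0.08 (SE 0.04, adjusted p = 0.326) in young Dusp5 cells, on the log2 scale against OTC. Bulk libraries do not separate fewer open cells from less opening per cell.

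Promoter sequence from RefSeq on GRCm38.p6 covered 250 bases before to 50 bases after a start and was on hand for 6 of the 8 genes; S1pr1 and Cd69 had no entry. The 6 genes gave 8 windows, 3 of them for Foxp1, and 6 of the 8 windows overlapped a peak. Those peaks were Klf2 peak 3, Klf3 peak 1, Foxo1 peak 6, Foxo3 peak 5 and Foxp1 peaks 7 and 46. The overlap was partial at Foxp1 peak 46 (chr6:99521157-99523424), where the start base itself lay outside the peak. Shown are 4 of the starts whose peaks the results return to, 5′ to 3′ on the gene's strand. Capitals mark the KLF letters CACCC or, on the other strand, GGGTG.

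The windows lie on the plus strand at chr8:72318812-72319111 for Klf2, chr5:64803271-64803570 for Klf3 and chr3:52268087-52268386 for Foxo1. The window of the upstream start of Foxp1 lies on the minus strand at chr6:99520944-99521243, and peak 46 covers it in part.
Klf2: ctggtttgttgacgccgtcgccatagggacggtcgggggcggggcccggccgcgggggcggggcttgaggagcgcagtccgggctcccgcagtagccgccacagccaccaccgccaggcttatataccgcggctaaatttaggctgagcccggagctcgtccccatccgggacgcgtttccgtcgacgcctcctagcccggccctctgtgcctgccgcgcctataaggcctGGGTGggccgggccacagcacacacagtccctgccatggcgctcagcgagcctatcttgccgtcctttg
Klf3: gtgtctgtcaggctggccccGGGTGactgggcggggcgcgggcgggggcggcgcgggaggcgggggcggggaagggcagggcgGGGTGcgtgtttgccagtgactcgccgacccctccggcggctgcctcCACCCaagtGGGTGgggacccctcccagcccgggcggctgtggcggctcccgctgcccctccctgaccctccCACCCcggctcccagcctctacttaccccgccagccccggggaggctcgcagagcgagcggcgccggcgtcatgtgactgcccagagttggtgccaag
Foxo1: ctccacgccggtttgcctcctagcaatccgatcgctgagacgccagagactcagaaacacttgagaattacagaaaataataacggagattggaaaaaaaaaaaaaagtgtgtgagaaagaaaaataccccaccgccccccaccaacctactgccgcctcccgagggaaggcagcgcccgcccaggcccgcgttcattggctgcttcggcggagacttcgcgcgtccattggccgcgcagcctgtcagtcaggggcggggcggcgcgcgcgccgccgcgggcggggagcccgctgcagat
Foxp1 upstream start: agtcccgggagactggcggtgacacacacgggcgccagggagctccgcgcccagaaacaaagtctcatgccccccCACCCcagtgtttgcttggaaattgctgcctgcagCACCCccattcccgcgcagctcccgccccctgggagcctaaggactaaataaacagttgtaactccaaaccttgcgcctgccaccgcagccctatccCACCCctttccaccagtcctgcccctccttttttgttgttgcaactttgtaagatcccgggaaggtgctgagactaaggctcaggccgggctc

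The KLF letters occur 1 time in the Klf2 window, 5 times in Klf3, 3 times in the upstream Foxp1 window and 2 times each in the windows of Foxp1 peak 7 and of S1pr5, and in none of the windows of Foxo1, Foxo3 and the remaining Foxp1 start. So 5 of the 8 windows hold them, and so do 57.5% of 32851 RefSeq promoter windows of the same length. The forkhead letters TGTTTAC, or GTAAACA on the other strand, are in 0 of the 8 windows and in 3.65% of all windows. The 2 motifs do not overlap each other. These matches describe letters and not bound sites. In the upstream Foxp1 window, the KLF match at -175 from the start lies in peak 46, while those at -140 and -43 lie outside it.

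The strongest peak of each gene lay at a start window for Klf2, Klf3, Foxo1 and Foxo3 and elsewhere for the others. Averaged over all 48 libraries, Foxo1 peak 6 held 1589 normalized reads, Cd69 peak 5 1474, Foxo3 peak 5 1437, Foxp1 peak 21 956, S1pr1 peak 12 828, Klf2 peak 3 687, Klf3 peak 1 255 and S1pr5 peak 2 112. Peaks are not all of equal width, so levels are not ranked between genes. The median level of the 109 peaks was 111.5, against 93.9 for all peaks, and the median width 914 bp against 899 bp. Of the 109, 105 had a read in every library. Klf3 peaks 1 and 2 also overlap the gene model Gm38457, and accessibility there belongs to either gene.

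**Figure D1:**
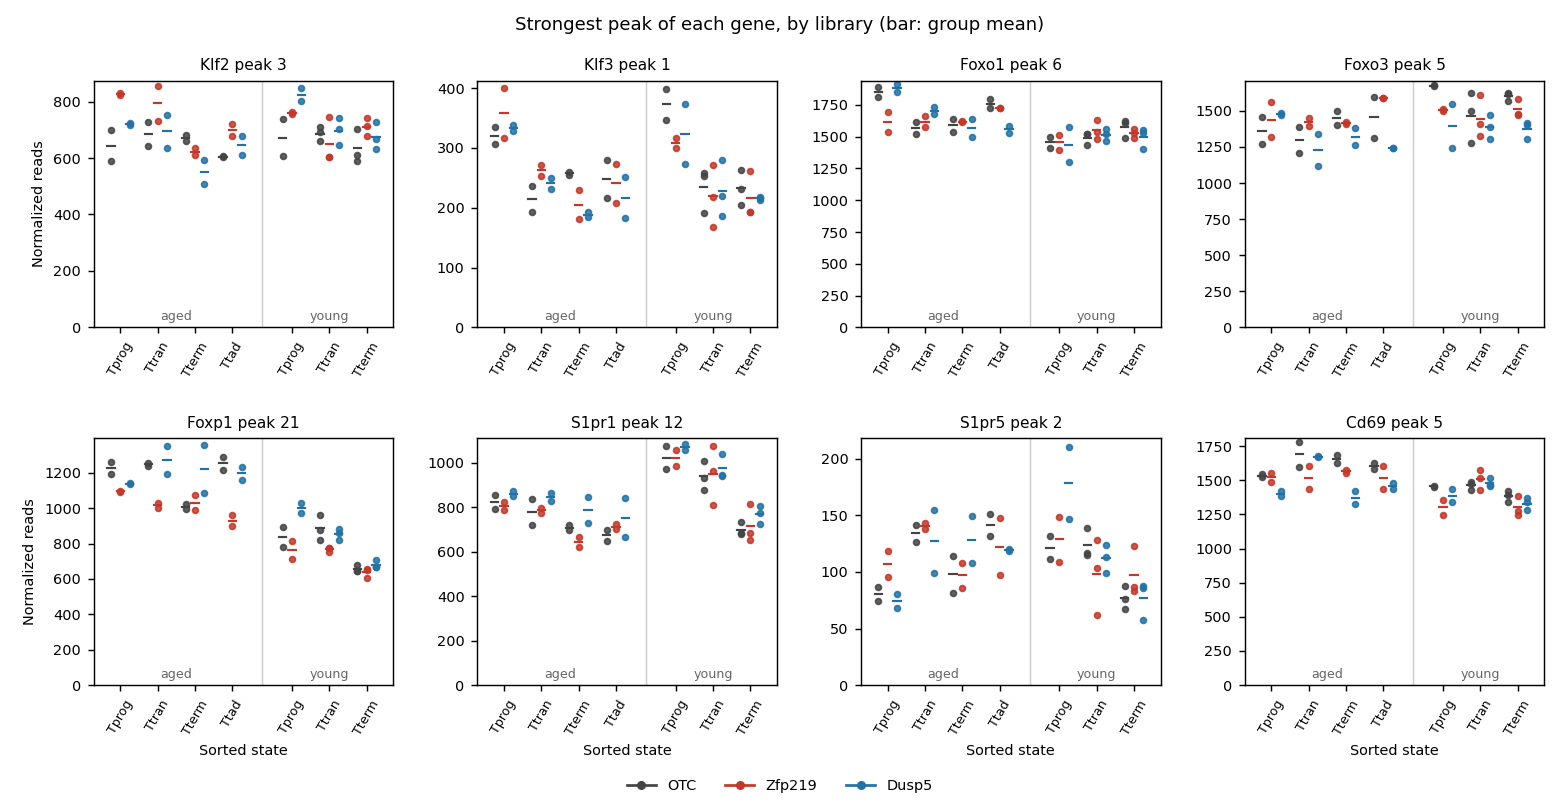
Normalized reads in the strongest peak of each of the 8 genes, by library, in the 21 groups of age, guide and state. Each point is 1 library and each short line a group mean. Foxo1, Foxo3, Klf2 and Cd69 stay within 1.3-fold to 1.5-fold between their highest and lowest group mean, while Klf3, Foxp1 and S1pr5 span 1.98-fold to 2.4-fold.

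Ordered by group mean, these levels formed a continuous series. Of the 20 neighbouring pairs of groups, the libraries overlapped in 17 for Klf2 peak 3, 19 for Klf3 peak 1, 18 for Foxo1 peak 6, 17 for Foxo3 peak 5, 14 for Foxp1 peak 21, 19 for S1pr1 peak 12, 20 for S1pr5 peak 2 and 17 for Cd69 peak 5. The libraries of the highest and the lowest group did not overlap for any of these peaks. Those groups were picked as the extremes of 21, so some separation follows from the choice. Klf2, Klf3, S1pr1 and Foxp1 are given as examples. Klf2 peak 3 was highest in aged Zfp219 Tprog at 826 ± 5.6 (SD, n = 2) and lowest in aged Dusp5 Tterm at 550.4 ± 59.8. Klf3 peak 1 was highest in young OTC Tprog at 373 ± 35.6 and lowest in aged Dusp5 Tterm at 188 ± 5.6. S1pr1 peak 12 was highest in young Dusp5 Tprog at 1072 ± 22.1 and lowest in aged Zfp219 Tterm at 645 ± 32.2. Foxp1 peak 21 ran from 1271 ± 115 in aged Dusp5 Ttran down to 637 ± 28 in young Zfp219 Tterm (n = 3).

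Summed over its peaks, Foxp1 spanned 1.88-fold from its highest to its lowest group, and 11 of its 20 neighbouring pairs overlapped. In aged OTC cells the Foxp1 sum was 10979 ± 105 normalized reads in Tprog, 9305 ± 122 in Ttad, 9139 ± 18.4 in Ttran and 7501 ± 174 in Tterm (SD, n = 2 each). In young OTC cells it was 8813 ± 15.3 in Tprog (n = 2), 7546 ± 72.6 in Ttran and 5832 ± 142 in Tterm (n = 3 each). The order Tprog, Ttran, Tterm was thus the same at both ages in OTC cells, and both guides kept it in young cells. It did not hold in aged guide cells. With Zfp219, aged Ttran (7581 ± 170) lay below Tterm (7934 ± 154). With Dusp5, aged Ttran (10531 ± 312) had a higher mean than Tprog (10249 ± 153), with overlapping libraries. In young OTC cells the S1pr1 sum was 4054 ± 84.5 in Tprog, 3606 ± 95.2 in Ttran and 2711 ± 27.8 in Tterm. In aged OTC cells it was 3386 ± 122 in Ttran, 3277 ± 15.2 in Tprog, 2635 ± 0.7 in Ttad and 2516 ± 37.2 in Tterm. Aged Tprog thus did not stand above aged Ttran. The Klf2 sum had its lowest mean of all 21 groups in aged OTC Ttad at 1294 ± 43.7, and its highest in young Zfp219 Tprog at 1897 ± 16.5. Of its 20 neighbouring pairs 15 overlapped. The Ttad libraries (1262.6 and 1324.4) overlapped those of young OTC Tterm (1310.2, 1346.1 and 1537.1). The Cd69 sum ran from 5569.8 ± 13.2 in aged OTC Ttran to 4116 ± 68.3 in young Zfp219 Tterm, and 18 of its 20 neighbouring pairs overlapped.

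Which of these genes open with the progenitor state was asked first in OTC cells, by limma on log2(value + 1), with a peak called at a Benjamini-Hochberg adjusted p under 0.05 over all 53868 peaks. Foxp1, S1pr1, Klf3 and Cd69 had more called peaks open in Tprog than in Tterm, the Klf2 peak just beyond the gene was higher in Tprog at both ages, Foxo1 had calls in both directions, and Foxo3 had 1 call, lower in aged Tprog. In aged cells 37 of the 109 peaks (33.9%) were called, 34 higher and 3 lower, against 20.1% of all peaks called, 8.88% higher and 11.2% lower. In young cells 52 of the 109 peaks (47.7%) were called, 48 higher and 4 lower, against 26.5% of all peaks called, 13.9% higher and 12.6% lower. The median log2 difference of the 109 was 0.33 in aged and 0.5 in young cells, against 0.01 for all peaks at both ages. Called higher at both ages were 26 peaks, which is 76.5% of the 34 in aged and 54.2% of the 48 in young cells; for all peaks the shares were 70.1% and 44.6%. The libraries of the 2 ages are different samples. Each fit was repeated leaving out, in the groups compared, the libraries of 1 replicate number in turn. Without replicate 1 or 2 this leaves aged groups and young Tprog groups with 1 library. A call is described below as lost without a replicate number when its adjusted p rose to 0.05 or more. Of 319 calls over all 19 comparisons, 89 held in every such fit.

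**Figure D2:**
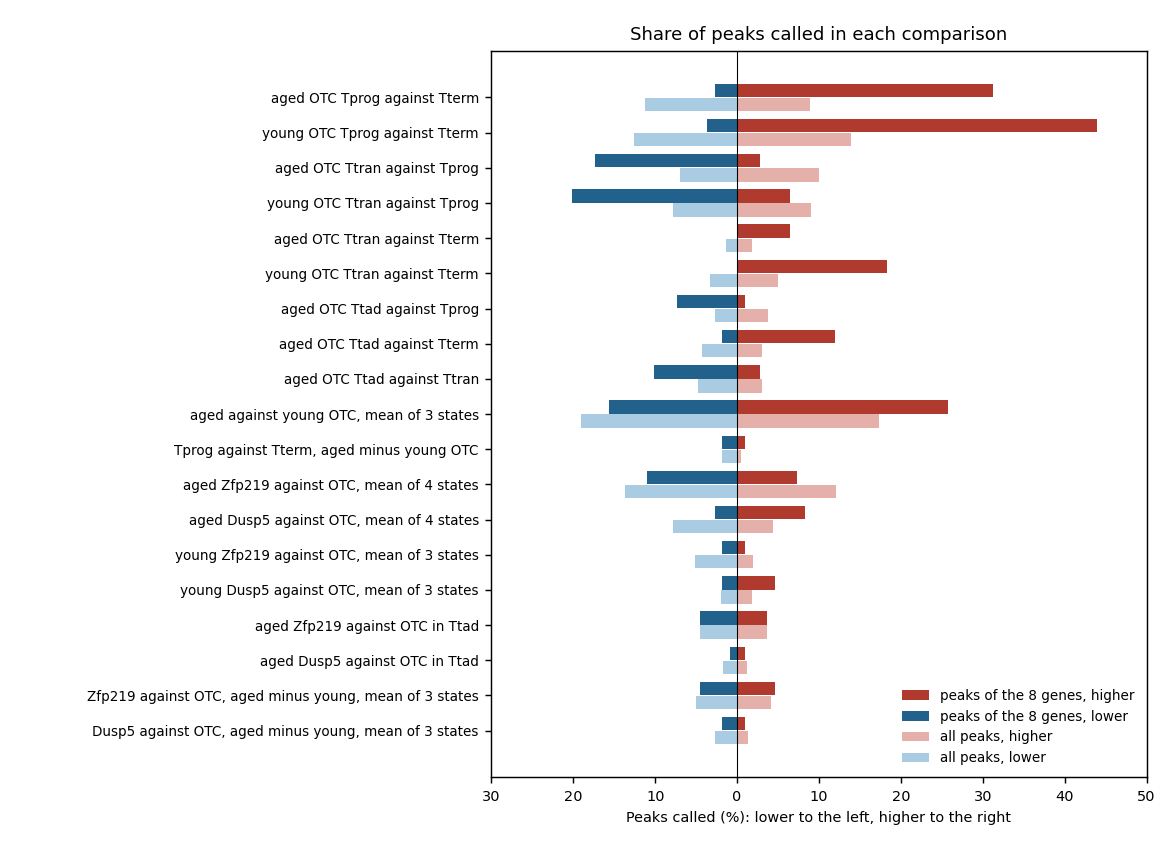
Share of the 109 peaks called higher or lower in each comparison (percent), beside the same share over all 53868 peaks. The Tprog against Tterm bars reach 31.2% higher in aged and 44% higher in young cells, against 8.88% and 13.9% of all peaks.

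Of the quiescence factors, Klf2 had a called peak beside the gene, while its start peak was not called. Klf2 peak 3, over the start and gene body (chr8:72318614-72319665), held 589 and 698 in Tprog, 729.5 and 642 in Ttran, 681 and 662 in Tterm and 607 and 602 in Ttad in aged OTC cells and 739 and 607 in Tprog, 693, 659 and 709 in Ttran and 589, 613 and 701 in Tterm in young. These libraries overlap between states, and the Tprog minus Tterm log2 difference was -0.07 (SE 0.11, adjusted p = 0.74) in aged and 0.08 (SE 0.10, adjusted p = 0.598) in young cells. Klf2 peak 4 (chr8:72321962-72322949, 308 bp above the gene body in coordinates) was the 1 Klf2 peak called between Tprog and Tterm. It held 377 and 437 in Tprog, 298 and 368 in Ttran, 317 and 240.1 in Tterm and 226 and 262 in Ttad in aged OTC cells. In young OTC cells it held 445 and 454 in Tprog, 341, 309.6 and 384 in Ttran and 233, 234 and 291 in Tterm. Both Tprog libraries lay above every Tterm library at each age. The log2 difference was 0.55 (SE 0.16, adjusted p = 0.00558) in aged and 0.84 (SE 0.14, adjusted p = 1.78e-06) in young cells. The aged call was lost without replicate 2 (adjusted p = 0.57). Klf2 peak 4 was singled out after its values were seen.

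At Klf3, the repressor, the start peak was called in young cells. Klf3 peak 1 held 307 and 334 in Tprog, 236 and 193 in Ttran, 260.4 and 255 in Tterm and 216 and 279.7 in Ttad in aged and 347 and 398 in Tprog, 258, 192 and 252 in Ttran and 205, 232 and 263 in Tterm in young OTC cells. Both Tprog libraries were the highest of their age. The log2 difference to Tterm was 0.68 (SE 0.17, adjusted p = 0.00118) in young cells, lost without replicate 2 (adjusted p = 0.0794), and 0.31 (SE 0.19, adjusted p = 0.258) in aged cells. In all, 4 of 5 Klf3 peaks were called higher in young Tprog and 1 of 5 in aged Tprog.

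Foxo1, the central quiescence factor, differed little at its start. Foxo1 peak 6 (chr3:52267774-52271796) held 1893 and 1812 in Tprog, 1519 and 1613 in Ttran, 1639.7 and 1541 in Tterm and 1724 and 1796 in Ttad in aged OTC cells, where Tprog was highest. In young OTC cells it held 1411 and 1498 in Tprog, 1522, 1524 and 1431 in Ttran and 1490.3, 1624 and 1611 in Tterm, with the states overlapping and 1 Tprog library the lowest. The log2 difference between Tprog and Tterm was 0.22 (SE 0.07, adjusted p = 0.0187) in aged and -0.12 (SE 0.07, adjusted p = 0.202) in young cells, and the difference between ages was 0.34 (SE 0.10, adjusted p = 0.0422). The aged call was lost without replicate 1 or 2 (adjusted p up to 0.218), and the difference between ages without replicate 1, 2 or 3 (adjusted p up to 0.372). Inside the gene, Foxo1 peak 11 (chr3:52327833-52329598) ran the other way. It held 146 and 169 in Tprog, 320.4 and 344 in Ttran, 245 and 215 in Tterm and 249.8 and 211 in Ttad in aged and 280.1 and 216 in Tprog, 419, 510.5 and 372 in Ttran and 362, 398 and 352 in Tterm in young OTC cells. Tprog was the lowest state, and at each age its libraries lay below all Tterm and Ttran libraries. Tprog minus Tterm was -0.54 (SE 0.17, adjusted p = 0.0164) in aged and -0.59 (SE 0.16, adjusted p = 0.0028) in young cells, lost without replicate 1 (adjusted p = 0.481) in aged and without replicate 2 (adjusted p = 0.303) in young. Foxo3 peak 1, at the gene's low-coordinate end, was lower in aged Tprog at -0.74 (SE 0.19, adjusted p = 0.00214), lost without replicate 1 (adjusted p = 0.328). The Foxo3 start peak 5 held 1269 and 1455 in Tprog, 1206 and 1387 in Ttran, 1403 and 1499 in Tterm and 1598 and 1313 in Ttad in aged OTC cells and the aged Tprog minus Tterm difference was -0.09 (SE 0.09, adjusted p = 0.52).

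Foxp1, the gene with the most peaks, also had the most calls. Of its 46 peaks, 25 were called higher in aged Tprog and 25 in young Tprog, and 19 were the same peaks, 76% of each list. The 46 peaks lie in 1 gene body of 597405 bp and are not independent of each other. Foxp1 peak 43 (chr6:99485154-99486723, overlapping the gene body) held 507 and 532 in Tprog, 165 and 156 in Ttran, 110.0 and 137 in Tterm and 235 and 179.9 in Ttad in aged OTC cells. The young OTC libraries held 295 and 292 in Tprog, 89.6, 94.6 and 76 in Ttran and 35.4, 23.6 and 42.7 in Tterm. The states did not overlap at either age, with Tprog highest, and Ttad lay between Tprog and Ttran. The log2 difference between Tprog and Tterm was 2.08 (SE 0.24, adjusted p = 1.29e-11) in aged and 3.12 (SE 0.22, adjusted p = 1.89e-22) in young cells, and both calls held in each fit without 1 replicate number. Foxp1 peak 25 (chr6:99309113-99309977) held 115 and 145 in Tprog, 90.3 and 71.7 in Ttran, 39.2 and 46.7 in Tterm and 70.4 and 38.2 in Ttad in aged and 228 and 242 in Tprog, 80.4, 67.2 and 73.9 in Ttran and 16.4, 22 and 18.6 in Tterm in young OTC cells. Both young Tprog libraries lay above the libraries of every other OTC group. Its log2 difference was 1.57 (SE 0.33, adjusted p = 0.000115) in aged and 3.57 (SE 0.30, adjusted p = 9.25e-18) in young cells, each called in every fit without 1 replicate number. The aged minus young difference was -2.0 (SE 0.44, adjusted p = 0.00311), which was lost without replicate 1 or 2 (adjusted p up to 0.208).

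Foxp1 peak 32 (chr6:99385059-99385594), the largest aged difference, held 115 and 82.5 in Tprog, 39.1 and 11.2 in Ttran, 12 and 20.2 in Tterm and 70.4 and 67.8 in Ttad in aged and 109.6 and 110.4 in Tprog, 40.6, 21.9 and 35.9 in Ttran and 32.2, 18.1 and 20.8 in Tterm in young OTC cells. Tprog and Ttad libraries were the high ones in aged cells. The log2 difference was 2.57 (SE 0.42, adjusted p = 8.82e-07) in aged and 2.21 (SE 0.39, adjusted p = 2.68e-06) in young cells. Peak 35 followed in aged cells at 2.11 (SE 0.49, adjusted p = 0.000647) and peak 45 at 2.14 (SE 0.69, adjusted p = 0.0174), and in young cells peak 30 was 2.56 (SE 0.53, adjusted p = 7.73e-05). The aged calls of peaks 35 and 45 were lost without replicate 2 (adjusted p = 0.102 and 0.634). The start peaks differed less. In aged OTC cells Tprog was highest in peak 46, which covers part of the upstream start window. The peak held 286 and 264 in Tprog, 189.5 and 180.1 in Ttran, 179 and 176 in Tterm and 199.5 and 234 in Ttad. Its difference was 0.63 (SE 0.18, adjusted p = 0.00768) in aged, lost without replicate 1 or 2 (adjusted p up to 0.179), and 0.37 (SE 0.17, adjusted p = 0.0915) in young cells. The start in peak 7 was 0.28 (SE 0.10, adjusted p = 0.034) in aged cells, lost without replicate 1 (adjusted p = 0.704). Foxp1 peak 21, the strongest, was 0.28 (SE 0.09, adjusted p = 0.0152) in aged and 0.35 (SE 0.08, adjusted p = 0.000478) in young cells, lost without replicate 1 or 2 (adjusted p up to 0.309) and without replicate 1 (adjusted p = 0.135). Foxp1 peak 12 (chr6:99064225-99064634) ran opposite to most called Foxp1 peaks. It held 13.6 and 36.4 in Tprog, 52.7 and 57.4 in Ttran, 79.5 and 117 in Tterm and 33.5 and 17.3 in Ttad in aged and 35.1 and 10.3 in Tprog, 45.9, 85.2 and 53.8 in Ttran and 37.3, 59 and 49.5 in Tterm in young OTC cells, with few reads in each. Aged Tterm was highest and young Tprog overlapped no Tterm library. Tprog minus Tterm was -2.06 (SE 0.42, adjusted p = 7.17e-05) in aged and -1.27 (SE 0.38, adjusted p = 0.00747) in young cells, lost without replicate 1 (adjusted p = 0.0528) and without replicate 2 (adjusted p = 0.774). Foxp1 peak 13 was also lower in young Tprog at -0.78 (SE 0.20, adjusted p = 0.00181), lost without replicate 2 (adjusted p = 0.389).

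**Figure D3:**
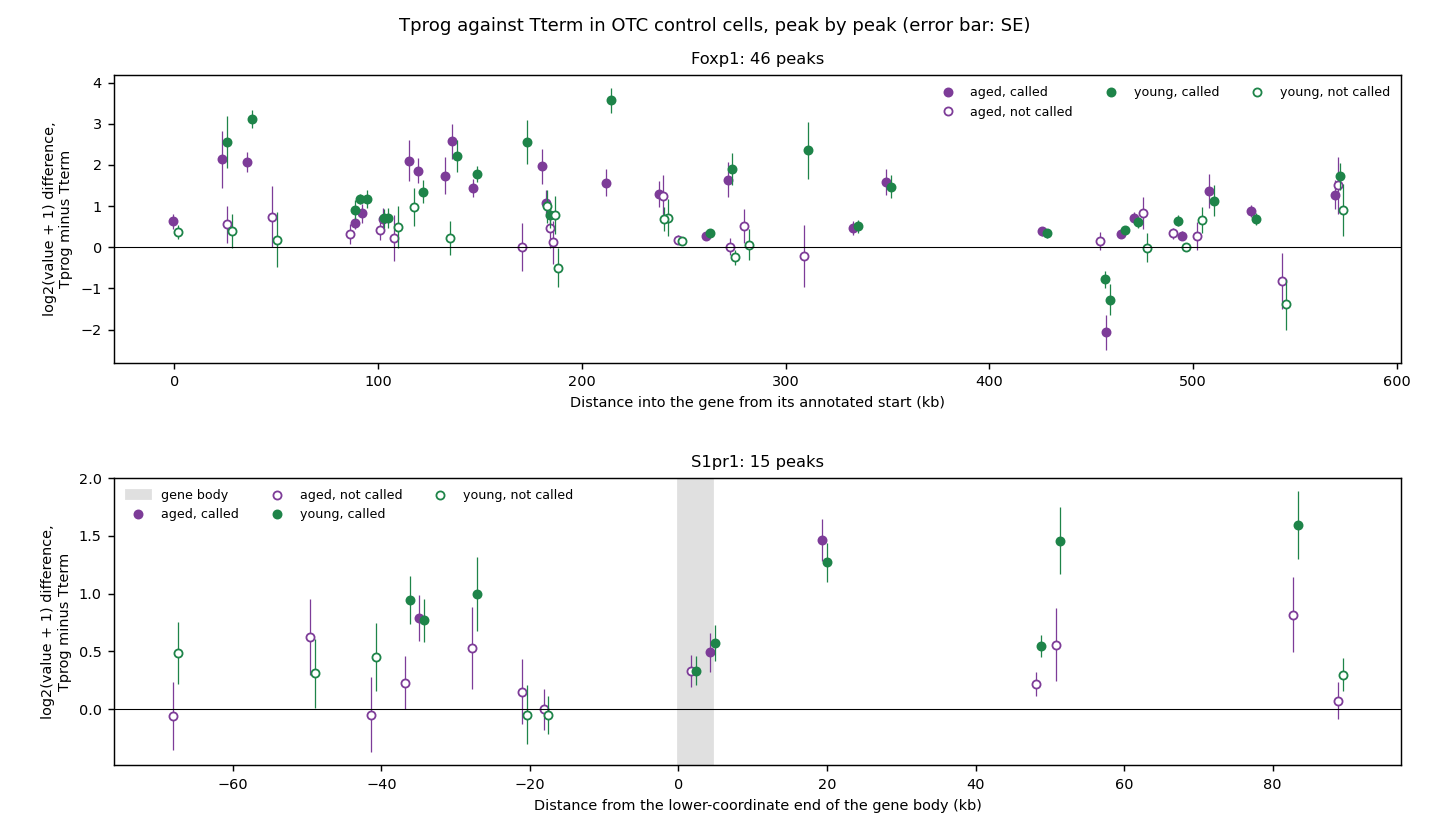
Log2 difference between Tprog and Tterm for each peak along the genes, in aged and young OTC cells. The horizontal axis gives the distance along the gene and filled points are called peaks; in Foxp1, 25 peaks are called higher at each age and peak 12 lies below 0 at both.

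Of the egress receptors, S1pr1 had 13 of its 15 peaks outside the gene body, assigned to it by distance alone. Peaks 9 and 10, overlapping the gene body, averaged 395 and 291 normalized reads. Their group means ran from 270.2 to 544.8 and from 186.6 to 374.5. S1pr1 peak 11 (chr3:115728785-115731379, 13730 bp above the gene body in coordinates) held 387 and 326 in Tprog, 256 and 225 in Ttran, 134 and 123 in Tterm and 287 and 225 in Ttad in aged OTC cells. The young OTC libraries held 389 and 376 in Tprog, 262, 219.7 and 241 in Ttran and 154, 157 and 163 in Tterm. Tprog was highest and Tterm lowest at both ages, neither overlapping another state. The log2 difference was 1.46 (SE 0.19, adjusted p = 5.52e-10) in aged and 1.27 (SE 0.17, adjusted p = 1.85e-09) in young cells, called in every fit without 1 replicate number. The strongest, S1pr1 peak 12 (chr3:115758012-115759730, 42957 bp above the gene body in coordinates), held 857 and 792 in Tprog, 719 and 837 in Ttran, 721 and 696 in Tterm and 651 and 699 in Ttad in aged and 971 and 1076 in Tprog, 879, 1008 and 930.0 in Ttran and 734, 682 and 684 in Tterm in young OTC cells. Its difference was 0.55 (SE 0.09, adjusted p = 1.78e-06) in young cells and 0.22 (SE 0.10, adjusted p = 0.13) in aged cells. The 3 peaks called higher in aged Tprog were all among the 9 called in young Tprog; limma called the difference between ages at 0 of the 15 S1pr1 peaks, edgeR at 0, and 3 had an unadjusted p under 0.05. S1pr5 had 2 peaks. S1pr5 peak 2 (chr9:21249824-21250733, 1381 bp above the gene body in coordinates) held 74.7 and 87 in Tprog, 126 and 142 in Ttran, 114 and 81.6 in Tterm and 151 and 132 in Ttad in aged and 132 and 111 in Tprog, 115, 139 and 117 in Ttran and 75.8, 67.6 and 87.7 in Tterm in young OTC cells. It was higher in young Tprog at 0.65 (SE 0.25, adjusted p = 0.0402), lost without replicate 1 or 2 (adjusted p up to 0.327), while in aged cells 1 Tprog library held the lowest value and the difference was -0.26 (SE 0.27, adjusted p = 0.575). The young call was also lost for S1pr5 peak 2 with quantile normalization (adjusted p = 0.09).

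Cd69, whose product opposes S1PR1, was also more open in Tprog at part of its peaks, 6 of 12 in young and 2 of 12 in aged cells. Cd69 peak 6 (chr6:129239554-129240185, 27139 bp below the gene body in coordinates) held 250.2 and 212 in Tprog, 111 and 131 in Ttran, 97 and 151 in Tterm and 166 and 152 in Ttad in aged and 246 and 244 in Tprog, 113, 124 and 120.3 in Ttran and 100.5, 119 and 100.1 in Tterm in young OTC cells, with Tprog above every other state at both ages. Its difference was 0.92 (SE 0.22, adjusted p = 0.00093) in aged and 1.2 (SE 0.20, adjusted p = 1.37e-06) in young cells, the aged call being lost without replicate 1 (adjusted p = 0.407). Cd69 peak 11, at the gene (chr6:129273471-129276129), held 1140.2 and 1123 in Tprog, 1158 and 1320.0 in Ttran, 1118 and 1166 in Tterm and 1006 and 1122 in Ttad in aged OTC cells, with the states overlapping. In young OTC cells it held 1196 and 1218 in Tprog, 1042, 986 and 961 in Ttran and 862, 844 and 769 in Tterm, and the states did not overlap. The young difference was 0.55 (SE 0.08, adjusted p = 8.25e-09) and the aged one -0.01 (SE 0.08, adjusted p = 0.945). The 2 ages differed by -0.56 (SE 0.11, adjusted p = 0.00087), lost without replicate 2 (adjusted p = 0.148). The strongest Cd69 peak, peak 5, was -0.11 (SE 0.07, adjusted p = 0.296) in aged and 0.07 (SE 0.07, adjusted p = 0.449) in young cells. Over all members, the difference of differences between ages was called for 3 of 109 peaks (2.75%), Foxo1 peak 6 higher and Foxp1 peak 25 and Cd69 peak 11 lower, against 2.32% of all peaks, 0.512% higher and 1.81% lower.

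Ttran, positive for both sorting markers, was compared with each of the other 2 states. Against Tprog, in aged cells 22 of the 109 peaks (20.2%) were called, 3 higher and 19 lower, against 17% of all peaks called, 9.99% higher and 6.98% lower. In young cells 29 of the 109 peaks (26.6%) were called, 7 higher and 22 lower, against 16.9% of all peaks called, 9.07% higher and 7.82% lower. Against Tterm, in aged cells 7 of the 109 peaks (6.42%) were called, 7 higher and 0 lower, against 3.22% of all peaks called, 1.87% higher and 1.35% lower. In young cells 20 of the 109 peaks (18.3%) were called, 20 higher and 0 lower, against 8.38% of all peaks called, 5.02% higher and 3.36% lower. The comparisons of 1 age share libraries. Foxo1 peak 11 was the clearest gain of Ttran over Tprog, at 1.07 (SE 0.17, adjusted p = 1.12e-06) in aged and 0.80 (SE 0.16, adjusted p = 6.60e-05) in young cells, the young call being lost without replicate 2 (adjusted p = 0.148). Foxp1 peak 12 rose as well, by 1.26 (SE 0.42, adjusted p = 0.0251) and 1.59 (SE 0.38, adjusted p = 0.00119), lost without replicate 1 (adjusted p = 0.586) in aged and without replicate 2 (adjusted p = 0.643) in young cells. Foxp1 peak 19 was higher in young Ttran at 0.58 (SE 0.19, adjusted p = 0.0209), lost without replicate 1 or 2 (adjusted p up to 0.38), and S1pr1 peak 7 in aged Ttran at 0.99 (SE 0.28, adjusted p = 0.0071), lost without replicate 1 (adjusted p = 0.392). The aged call was also lost for Foxp1 peak 12 with edgeR (adjusted p = 0.0524) and the fit of the compared groups alone (adjusted p = 0.0874).

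The falls from Tprog to Ttran were led by weak Foxp1 peaks. Peak 45 was -3.21 (SE 0.69, adjusted p = 0.000283) in aged and -2.83 (SE 0.63, adjusted p = 0.000419) in young cells. Its libraries held 47.6 and 55 in aged Tprog against 4.51 and 4.78 in aged Ttran, and 38.7 and 45.4 against 7.06, 5.47 and 3.17 in young cells, so the fold rests on few reads. Peak 32 was -2.16 (SE 0.42, adjusted p = 5.32e-05) and -1.76 (SE 0.39, adjusted p = 0.000313), lost without replicate 2 (adjusted p = 0.0728) in aged and without replicate 2 (adjusted p = 0.0552) in young cells. Peak 29 was -2.41 (SE 0.43, adjusted p = 1.03e-05) in aged and peak 30 -1.86 (SE 0.53, adjusted p = 0.00748) in young cells, the latter lost without replicate 2 (adjusted p = 0.199). The Klf3 start peak was lower in Ttran at both ages, -0.58 (SE 0.19, adjusted p = 0.0192) in aged and -0.68 (SE 0.17, adjusted p = 0.00191) in young cells, lost without replicate 2 (adjusted p = 0.443 and 0.257). Foxo1 peak 6 was lower in aged Ttran at -0.24 (SE 0.07, adjusted p = 0.0107), lost without replicate 1 (adjusted p = 0.366), and Foxp1 peak 46 at -0.57 (SE 0.18, adjusted p = 0.0206) in aged and -0.55 (SE 0.17, adjusted p = 0.0126) in young cells, lost without replicate 1 or 2 (adjusted p up to 0.211 and 0.151).

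In these 2 comparisons limma and edgeR each called 0 of the 109 peaks lower, and 0 had an unadjusted p under 0.05 in that direction, for Ttran against Tterm at either age. In aged cells S1pr1 gave the 3 leading gains: peak 7 at 1.14 (SE 0.28, adjusted p = 0.00982), peak 5 at 0.92 (SE 0.20, adjusted p = 0.00252) and peak 11 at 0.90 (SE 0.19, adjusted p = 0.00127), lost without replicate 1 (adjusted p = 0.312), without replicate 2 (adjusted p = 0.231) and without replicate 1 (adjusted p = 0.0812). S1pr1 peak 5 (chr3:115675239-115676360) held 197 and 224 in Tprog, 178 and 299.7 in Ttran, 111 and 132 in Tterm and 136 and 117 in Ttad in aged OTC cells, where 1 Ttran library was the highest and the other lay below both Tprog libraries. Foxp1 peak 21 was 0.31 (SE 0.09, adjusted p = 0.0363) in aged cells, lost without replicate 1 or 2 (adjusted p up to 0.261), and 0.43 (SE 0.07, adjusted p = 1.08e-05) in young cells. In young cells Foxp1 led, with peak 25 at 1.91 (SE 0.27, adjusted p = 1.28e-07), peak 43 at 1.36 (SE 0.19, adjusted p = 1.52e-07) and peak 31 at 0.82 (SE 0.18, adjusted p = 0.000743). S1pr1 peak 12 was 0.42 (SE 0.08, adjusted p = 0.000189) there, and S1pr5 peak 2 0.68 (SE 0.22, adjusted p = 0.0388), the latter lost without replicate 1, 2 or 3 (adjusted p up to 0.39). Calls against Tterm were also lost for S1pr1 peak 7 with the fit of the compared groups alone (adjusted p = 0.0639), Foxp1 peak 21 in aged cells with quantile normalization (adjusted p = 0.067) and the fit of the compared groups alone (adjusted p = 0.0651) and S1pr5 peak 2 with quantile normalization (adjusted p = 0.0866).

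**Figure D4:**
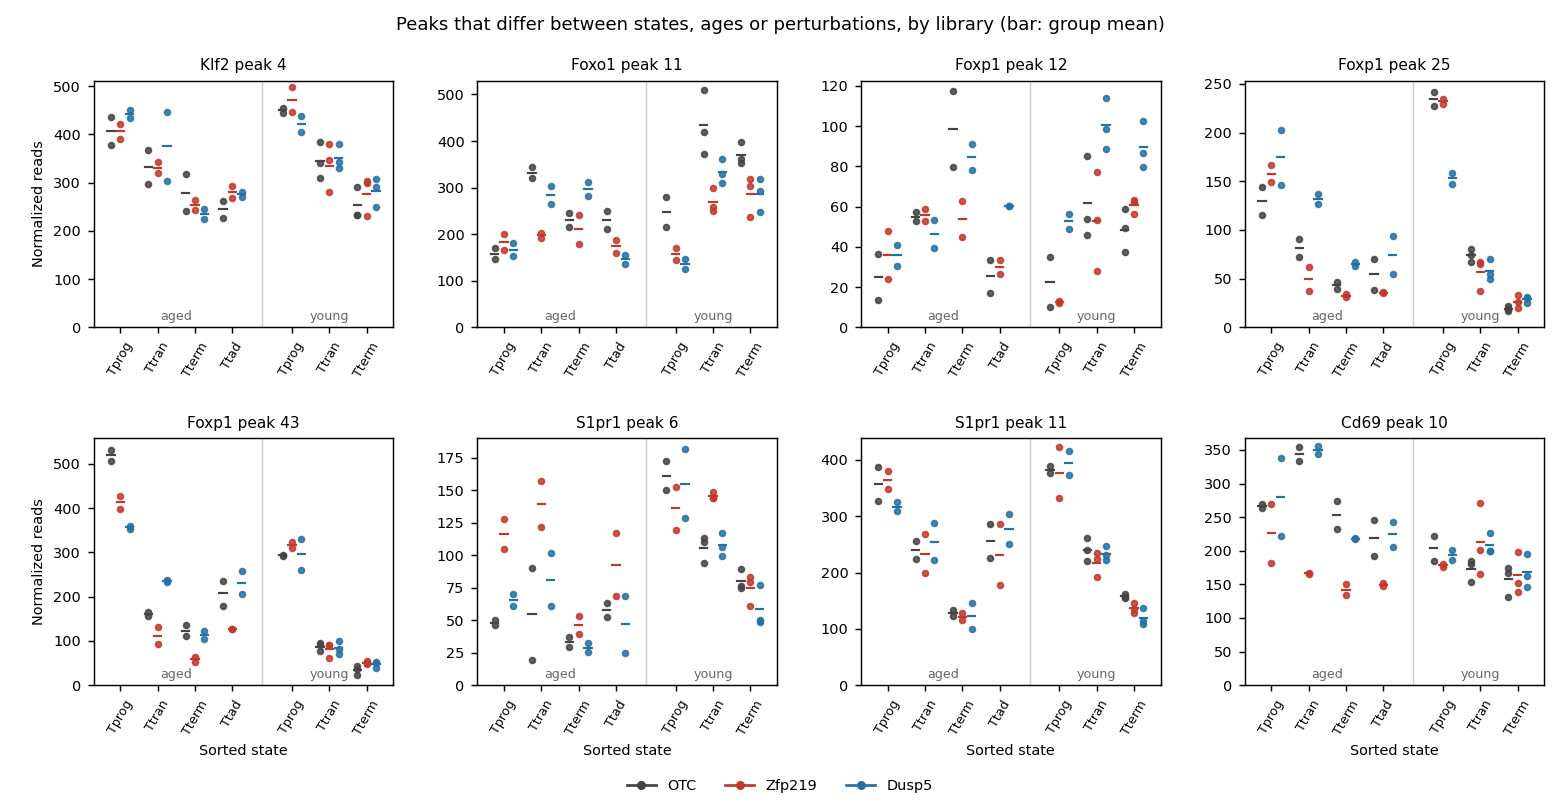
Normalized reads of 8 peaks by library in the 21 groups: Klf2 peak 4, Foxo1 peak 11, Foxp1 peaks 12, 25 and 43, S1pr1 peaks 6 and 11, and Cd69 peak 10. Each point is 1 library and each short line a group mean; Foxp1 peak 43 falls from 507 and 532 in aged OTC Tprog to 110.0 and 137 in Tterm, and S1pr1 peak 6 is low in aged OTC cells.

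The Ttad state, sorted as negative for both markers, is represented here by libraries of aged hosts. Against Tprog, 9 of the 109 peaks (8.26%) were called, 1 higher and 8 lower, against 6.55% of all peaks called, 3.82% higher and 2.73% lower. Against Tterm, 15 of the 109 peaks (13.8%) were called, 13 higher and 2 lower, against 7.28% of all peaks called, 3.02% higher and 4.26% lower. Against Ttran, 14 of the 109 peaks (12.8%) were called, 3 higher and 11 lower, against 7.74% of all peaks called, 3.02% higher and 4.72% lower. These 3 comparisons share the 2 Ttad libraries, and 0 of their calls held in every fit without 1 replicate number. Foxp1 had 12 of 46 peaks called higher and 1 lower in Ttad than in Tterm, and 3 called lower than in Tprog. Foxp1 peak 43 was -1.33 (SE 0.24, adjusted p = 4.58e-05) against Tprog, lost without replicate 2 (adjusted p = 0.0509), and peak 25 -1.30 (SE 0.33, adjusted p = 0.00611), lost without replicate 2 (adjusted p = 0.494). Against Tterm, peak 32 was 2.08 (SE 0.42, adjusted p = 0.00032), peak 34 1.35 (SE 0.30, adjusted p = 0.00103) and peak 29 1.34 (SE 0.43, adjusted p = 0.0383), lost without replicate 1 (adjusted p = 0.123), without replicate 1 or 2 (adjusted p up to 0.0734) and without replicate 1 or 2 (adjusted p up to 0.448). Peak 12 was -1.96 (SE 0.42, adjusted p = 0.000702), lost without replicate 2 (adjusted p = 0.296). Peak 21 was 0.31 (SE 0.09, adjusted p = 0.0163), lost without replicate 1 or 2 (adjusted p up to 0.327). The call against Tterm was also lost for Foxp1 peak 29 with quantile normalization (adjusted p = 0.0564) and the fit of the compared groups alone (adjusted p = 0.101).

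Klf2 had 2 of 5 peaks, peaks 1 and 4, called lower in Ttad than in Tprog. Peak 1 is weak, holding 5.66 and 9.76 in Tprog and 0 in both Ttad libraries, and edgeR did not call it. Klf2 peak 4 held 226 and 262 in Ttad against 377 and 437 in Tprog, a log2 difference of -0.73 (SE 0.16, adjusted p = 0.000898), lost without replicate 1 (adjusted p = 0.0679). S1pr1 peak 3 (chr3:115669046-115669685) held 91.7 and 87.8 in Tprog, 45.1 and 143 in Ttran, 75.2 and 115 in Tterm and 36.9 and 54.2 in Ttad in aged OTC cells, with the lowest mean in Ttad and 1 Ttran library between the 2 Ttad libraries. It was -0.99 (SE 0.33, adjusted p = 0.0472) against Tprog and -1.04 (SE 0.33, adjusted p = 0.0321) against Tterm, lost without replicate 1 or 2 (adjusted p up to 0.608 and 0.254). S1pr1 peak 11, in contrast, was higher in Ttad than in Tterm at 0.98 (SE 0.19, adjusted p = 9.35e-05), lost without replicate 1 (adjusted p = 0.0532). Foxo1 peak 11 was higher in Ttad than in Tprog at 0.54 (SE 0.17, adjusted p = 0.0415), lost without replicate 1 or 2 (adjusted p up to 0.693). Calls against Tprog were also lost for S1pr1 peak 3 with quantile normalization (adjusted p = 0.077), the replicate block (adjusted p = 0.0505), edgeR (adjusted p = 0.0629) and the fit of the compared groups alone (adjusted p = 0.0872) and for Foxo1 peak 11 with edgeR (adjusted p = 0.0746) and the fit of the compared groups alone (adjusted p = 0.116). The call against Tterm was also lost for S1pr1 peak 3 with the fit of the compared groups alone (adjusted p = 0.0745). Against Ttran the leading gains were Foxo1 peak 18 (2.21, SE 0.53, adjusted p = 0.00329), Foxp1 peak 29 (1.79, SE 0.43, adjusted p = 0.00362) and Foxp1 peak 32 (1.67, SE 0.42, adjusted p = 0.0059), lost without replicate 2 (adjusted p = 0.111, 0.21 and 0.466). The leading falls were Foxp1 peak 26 (-1.81, SE 0.52, adjusted p = 0.0176), Foxp1 peak 36 (-1.70, SE 0.55, adjusted p = 0.0389) and S1pr1 peak 5 (-0.87, SE 0.20, adjusted p = 0.00225), lost without replicate 2 (adjusted p = 0.393), without replicate 1 or 2 (adjusted p up to 0.498) and without replicate 2 (adjusted p = 0.492). Calls against Ttran were also lost for Foxo1 peak 18 with the fit of the compared groups alone (adjusted p = 0.0841), Foxp1 peak 29 with the fit of the compared groups alone (adjusted p = 0.0923), Foxp1 peak 32 with the fit of the compared groups alone (adjusted p = 0.0665), Foxp1 peak 26 with the fit of the compared groups alone (adjusted p = 0.211) and Foxp1 peak 36 with the fit of the compared groups alone (adjusted p = 0.0894).

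Host age was compared in OTC cells over Tprog, Ttran and Tterm. Foxp1 had 16 of 46 peaks called higher in aged hosts and 2 lower, and Cd69 had 7 of 12 higher and 0 lower. S1pr1, Foxo1 and Foxo3 had more calls lower in aged hosts (5 of 15, 7 of 19 and 2 of 5) than higher (1, 3 and 0). Klf3 peak 5 was called lower and S1pr5 peak 1 higher. At Klf2 limma called 0 of 5 peaks, while edgeR called 1 and 1 had an unadjusted p under 0.05, both lower. In all, 45 of the 109 peaks (41.3%) were called, 28 higher and 17 lower, against 36.5% of all peaks called, 17.3% higher and 19.1% lower. The median log2 difference was 0.01 for the 109 and 0.0 for all peaks.

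Foxp1 peak 19 (chr6:99248110-99249185) held 260.4 and 287 in Tprog, 279.8 and 368 in Ttran and 299.6 and 246 in Tterm in aged OTC cells. In young OTC cells it held 102 and 87.3 in Tprog, 149, 153 and 122 in Ttran and 119, 95.9 and 121 in Tterm. Every aged library lay above every young library of its state. The log2 difference was 1.33 (SE 0.11, adjusted p = 3.18e-18). Foxp1 peak 2 followed at 1.21 (SE 0.19, adjusted p = 1.64e-07) and peak 43 at 1.19 (SE 0.13, adjusted p = 4.83e-13), and peak 21, the strongest, was 0.56 (SE 0.05, adjusted p = 3.08e-17); all 4 calls held in each fit without 1 replicate number. The start in peak 7 was 0.14 (SE 0.06, adjusted p = 0.0387), lost without replicate 1 or 2 (adjusted p up to 0.443). This call was also lost for Foxp1 peak 7 with quantile normalization (adjusted p = 0.0657). Foxo1 moved both ways. Peaks 18 and 15, 61005 and 40256 bp above the gene, were -1.39 (SE 0.29, adjusted p = 4.70e-05) and -1.17 (SE 0.25, adjusted p = 7.85e-05), and peak 11 was -0.57 (SE 0.10, adjusted p = 6.07e-07), each lower in 3 of 3 states. Foxo1 peak 18 held 22.7 and 30.2 in Tprog, 10.5 and 4.78 in Ttran and 13.1 and 18.3 in Tterm in aged and 81 and 58.2 in Tprog, 45.5, 25 and 34.8 in Ttran and 27.8, 24.4 and 24.8 in Tterm in young OTC cells. The start in peak 6 was higher in aged cells at 0.14 (SE 0.04, adjusted p = 0.00195), lost without replicate 1 (adjusted p = 0.14).

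Foxo3 had 2 of 5 peaks called lower in aged hosts. Foxo3 peak 4 (chr10:42268892-42270095) held 219 and 228 in Tprog, 311 and 210.4 in Ttran and 246 and 236 in Tterm in aged and 568 and 479 in Tprog, 460.1, 478 and 439 in Ttran and 441, 508 and 424 in Tterm in young OTC cells, with no overlap in any state. Its log2 difference was -0.99 (SE 0.08, adjusted p = 2.24e-18), called in each fit without 1 replicate number. The start in peak 5 was -0.21 (SE 0.05, adjusted p = 0.000294), lost without replicate 1 (adjusted p = 0.0797). S1pr1 peak 6 (chr3:115682419-115683466, 26967 bp below the gene body in coordinates) held 49.8 and 46.1 in Tprog, 90.3 and 19.1 in Ttran and 37 and 29.3 in Tterm in aged OTC cells. Young OTC libraries held 172 and 149.7 in Tprog, 93.6, 113 and 109.8 in Ttran and 75.8, 89.6 and 74.8 in Tterm. The aged libraries were lower in 3 of 3 states, and 1 aged Ttran library, at 90.3, stood apart from its pair at 19.1. The log2 difference was -1.43 (SE 0.19, adjusted p = 1.55e-09), called in each fit without 1 replicate number, with estimates from -1.87 to -0.98. The strongest, S1pr1 peak 12, was -0.19 (SE 0.06, adjusted p = 0.00464), lost without replicate 2 (adjusted p = 0.125), and the 1 S1pr1 peak called higher was peak 13 at 0.88 (SE 0.17, adjusted p = 1.63e-05). Cd69 peak 10 (chr6:129265741-129267522, overlapping the gene body) held 264 and 269.7 in Tprog, 334 and 354 in Ttran and 273 and 233 in Tterm in aged and 185 and 222 in Tprog, 181, 184 and 154 in Ttran and 131, 167 and 174 in Tterm in young OTC cells. Aged libraries were higher in 3 of 3 states, at 0.69 (SE 0.11, adjusted p = 8.88e-08). Cd69 peak 5 was higher by 0.18 (SE 0.04, adjusted p = 8.33e-05), and both calls held in each fit without 1 replicate number.

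Zfp219 and Dusp5 guides were compared with OTC over the states of each age, which are 4 in aged hosts, with Ttad, and 3 in young hosts. Differences of a guide effect between ages use the 3 shared states alone, so they are not the aged value minus the young one. The 2 guides of an age share its OTC libraries. In aged Zfp219 cells 20 of the 109 peaks (18.3%) were called, 8 higher and 12 lower, against 25.8% of all peaks called, 12.1% higher and 13.7% lower. Foxp1 had 8 of 46 peaks called lower and 1 higher with the Zfp219 guide, S1pr1 3 of 15 higher and 1 lower, and Cd69 1 of 12 lower. Foxo1 had peak 16 called higher and peaks 7 and 11 lower, and Klf2 peak 3, Klf3 peak 3 and Foxo3 peak 4 were called higher. In young Zfp219 cells 3 of the 109 peaks (2.75%) were called, 1 higher and 2 lower, against 7.07% of all peaks called, 1.92% higher and 5.15% lower.

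S1pr1 peak 6 held 128 and 105 in Tprog, 121 and 157 in Ttran, 39.6 and 52.9 in Tterm and 117 and 68.2 in Ttad in aged Zfp219 cells, above the aged OTC libraries, which held 52 and 62.8 in Ttad and the values given for age in the other states. All Zfp219 libraries were higher in 4 of 4 states, with a log2 difference of 1.01 (SE 0.18, adjusted p = 3.35e-06) that held in each fit without 1 replicate number. In young Zfp219 cells it held 153 and 119.5 in Tprog, 148, 144 and 144 in Ttran and 83, 79.4 and 61 in Tterm and the difference was 0.04 (SE 0.18, adjusted p = 0.944). The 2 ages differed by 1.10 (SE 0.27, adjusted p = 0.00369), lost without replicate 2 (adjusted p = 0.497). S1pr1 peak 3 was 0.58 (SE 0.16, adjusted p = 0.00426) in aged Zfp219 cells, lost without replicate 1 (adjusted p = 0.633). Foxp1 peak 43 held 428 and 398 in Tprog, 131 and 92.2 in Ttran, 63.8 and 52.9 in Tterm and 126 and 128 in Ttad in aged Zfp219 cells, below OTC in 4 of 4 states. The difference was -0.66 (SE 0.12, adjusted p = 6.09e-06), called in each fit without 1 replicate number, and 0.20 (SE 0.12, adjusted p = 0.346) in young cells; the ages differed by -0.85 (SE 0.18, adjusted p = 0.00063), lost without replicate 2 (adjusted p = 0.128). Foxp1 peak 11 was -0.42 (SE 0.05, adjusted p = 2.65e-10), peak 21 -0.22 (SE 0.05, adjusted p = 9.02e-05) and peak 2 -0.46 (SE 0.18, adjusted p = 0.0408), the calls of peaks 21 and 2 being lost without replicate 2 (adjusted p = 0.0602) and without replicate 1 or 2 (adjusted p up to 0.362). The 1 peak called higher, peak 26 at 0.67 (SE 0.26, adjusted p = 0.0458), turned to -0.13 without replicate 1 (adjusted p = 0.872). Calls were also lost for Foxp1 peak 26 with edgeR (adjusted p = 0.0601) and the fit of the compared groups alone (adjusted p = 0.0625) and for Foxp1 peak 2 with quantile normalization (adjusted p = 0.0656).

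Cd69 peak 10 held 182 and 270.1 in Tprog, 167 and 166 in Ttran, 134 and 149.8 in Tterm and 148 and 152 in Ttad in aged Zfp219 cells against 264 and 269.7 in Tprog, 334 and 354 in Ttran, 273 and 233 in Tterm and 193 and 246 in Ttad in aged OTC cells. It was lower in 3 of 4 states, and in Tprog 1 of the 2 guide libraries lay above both OTC libraries. The difference was -0.67 (SE 0.10, adjusted p = 4.48e-08), called in each fit without 1 replicate number. In young cells it was 0.04 (SE 0.10, adjusted p = 0.86), and the ages differed by -0.76 (SE 0.15, adjusted p = 0.00023), lost without replicate 1 (adjusted p = 0.192). Foxo3 peak 4 held 266 and 273 in Tprog, 399 and 363 in Ttran, 266 and 319 in Tterm and 335 and 342 in Ttad in aged Zfp219 cells against 219 and 228 in Tprog, 311 and 210.4 in Ttran, 246 and 236 in Tterm and 201 and 243 in Ttad in OTC cells, higher in 4 of 4 states at 0.43 (SE 0.08, adjusted p = 3.79e-06). The Klf2 start peak 3 held 830.3 and 822 in Tprog, 857 and 733 in Ttran, 609 and 635 in Tterm and 680.0 and 722 in Ttad in aged Zfp219 cells. It was above all OTC libraries in 3 of 4 states and below them in 1, at 0.17 (SE 0.05, adjusted p = 0.0128), lost without replicate 1 or 2 (adjusted p up to 0.194). Age and the aged Zfp219 comparison share the aged OTC libraries. Side by side, the differences for aged against young OTC and for aged Zfp219 against OTC were -1.43 and 1.01 at S1pr1 peak 6, -0.99 and 0.43 at Foxo3 peak 4, 1.19 and -0.66 at Foxp1 peak 43, 0.69 and -0.67 at Cd69 peak 10, and -0.57 and -0.27 at Foxo1 peak 11. These peaks were chosen after their values were seen, and with shared controls the 2 signs are not independent.

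**Figure D5:**
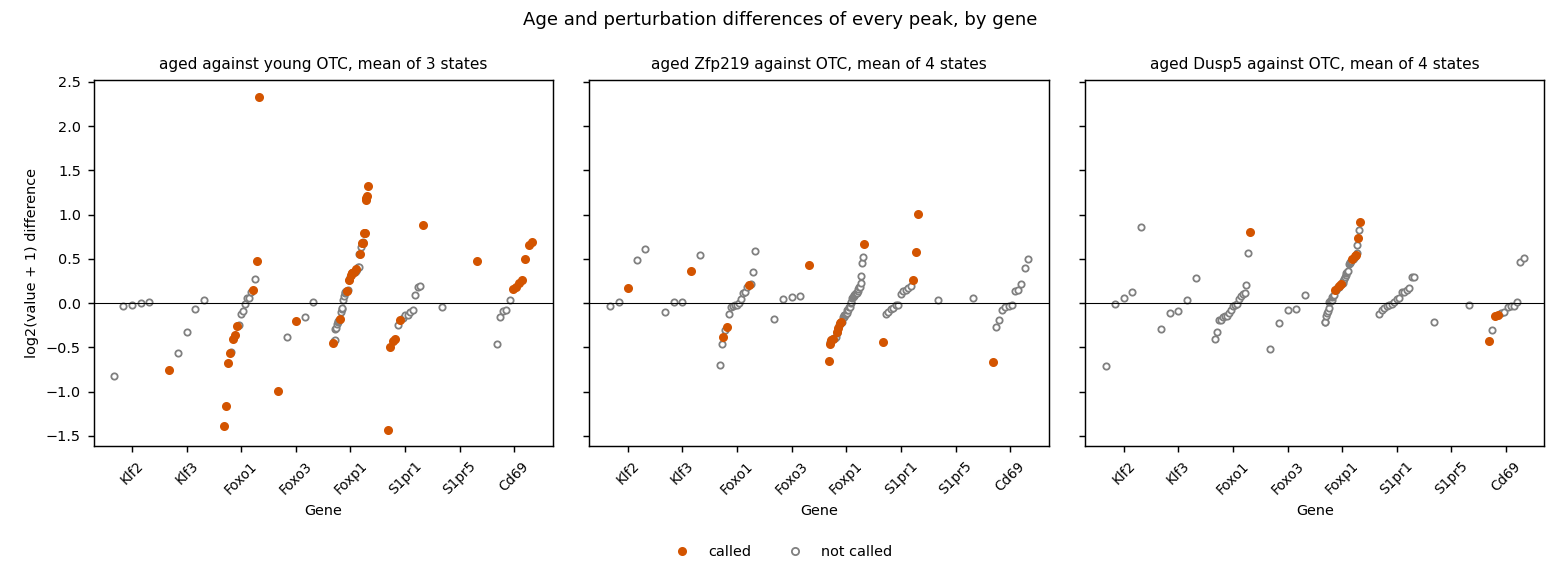
Log2 differences of the 109 peaks for aged against young OTC, aged Zfp219 against OTC and aged Dusp5 against OTC, by gene. Each point is 1 peak and filled points are called; all 3 comparisons use the aged OTC libraries, and S1pr1 peak 6 lies at -1.43 in the first and 1.01 in the second.

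In aged Dusp5 cells 12 of the 109 peaks (11%) were called, 9 higher and 3 lower, against 12.2% of all peaks called, 4.35% higher and 7.87% lower. Foxp1 had 8 of 46 peaks called higher with the Dusp5 guide; limma and edgeR each called 0 Foxp1 peaks lower, with 0 at an unadjusted p under 0.05. Cd69 had 3 of 12 called lower. The leading Foxp1 gains were peak 29 (0.91, SE 0.22, adjusted p = 0.00151) and peak 35 (0.74, SE 0.25, adjusted p = 0.0352), and Foxo1 peak 15 was 0.80 (SE 0.23, adjusted p = 0.0106), lost without replicate 2 (adjusted p = 0.328, 0.605 and 0.352). The start in Foxp1 peak 7 was 0.14 (SE 0.05, adjusted p = 0.0472), lost without replicate 1 or 2 (adjusted p up to 0.267). Cd69 peak 6 was -0.43 (SE 0.11, adjusted p = 0.0046), peak 5 -0.14 (SE 0.04, adjusted p = 0.00387) and peak 12 -0.14 (SE 0.05, adjusted p = 0.0361), lost without replicate 1 (adjusted p = 0.0984, 0.142 and 0.599). Of the 12 calls, 0 held in every fit without 1 replicate number. Calls were also lost for Foxo1 peak 15 with the fit of the compared groups alone (adjusted p = 0.0591), Foxp1 peak 35 with quantile normalization (adjusted p = 0.0772), Foxp1 peak 7 with the replicate block (adjusted p = 0.0506), edgeR (adjusted p = 0.054) and the fit of the compared groups alone (adjusted p = 0.0915), Cd69 peak 5 with quantile normalization (adjusted p = 0.607) and Cd69 peak 12 with quantile normalization (adjusted p = 0.453) and the fit of the compared groups alone (adjusted p = 0.0661). In young Dusp5 cells 7 of the 109 peaks (6.42%) were called, 5 higher and 2 lower, against 3.82% of all peaks called, 1.8% higher and 2.02% lower. Foxp1 peak 13 (chr6:99066102-99068026) held 190.2 and 195 in Tprog, 204, 249 and 236 in Ttran and 201, 216 and 235 in Tterm with the guide against 115 and 77 in Tprog, 137, 127 and 121 in Ttran and 135, 190.3 and 165 in Tterm in OTC cells. The difference was 0.76 (SE 0.11, adjusted p = 1.61e-06), called in each fit without 1 replicate number. Foxp1 peak 12 was 1.01 (SE 0.21, adjusted p = 0.00123) and peak 2 0.67 (SE 0.18, adjusted p = 0.0152), lost without replicate 2 (adjusted p = 0.0991) and without replicate 1, 2 or 3 (adjusted p up to 0.162). The Foxo3 start in peak 5 was -0.19 (SE 0.05, adjusted p = 0.00536), lost without replicate 1 or 3 (adjusted p up to 0.137). This call was also lost for Foxo3 peak 5 with quantile normalization (adjusted p = 0.0808).

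Foxo1 peak 11 was called lower with both guides in young hosts. It held 145 and 171 in Tprog, 299, 257 and 249 in Ttran and 318, 304 and 237 in Tterm in young Zfp219 and 146 and 126 in Tprog, 362, 311 and 328 in Ttran and 292, 318 and 247 in Tterm in young Dusp5 cells, against 280.1 and 216 in Tprog, 419, 510.5 and 372 in Ttran and 362, 398 and 352 in Tterm in young OTC cells. Guide libraries were lower than all OTC libraries of their state in 3 of 3 states for each guide. The differences were -0.57 (SE 0.09, adjusted p = 1.82e-06) and -0.53 (SE 0.09, adjusted p = 2.05e-05), both called in each fit without 1 replicate number, and both use the same OTC libraries. In aged cells the differences were -0.27 (SE 0.09, adjusted p = 0.014) for Zfp219 and -0.11 (SE 0.09, adjusted p = 0.475) for Dusp5; the former was lost without replicate 1 (adjusted p = 0.325). Between ages, over the 3 shared states without Ttad, the Dusp5 difference changed by 0.61 (SE 0.13, adjusted p = 0.00187), lost without replicate 1 or 2. In young Zfp219 cells Foxo3 peak 1 was also lower (-0.33, SE 0.10, adjusted p = 0.0217) and Foxp1 peak 37 higher (0.43, SE 0.14, adjusted p = 0.0384), lost without replicate 2 or 3 (adjusted p up to 0.629) and without replicate 1, 2 or 3 (adjusted p up to 0.44). A call was also lost for Foxp1 peak 37 with quantile normalization (adjusted p = 0.0693).

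Within Ttad, the Zfp219 guide gave the following: 9 of the 109 peaks (8.26%) were called, 4 higher and 5 lower, against 8.23% of all peaks called, 3.66% higher and 4.56% lower. Foxp1 peak 11 was -0.56 (SE 0.11, adjusted p = 9.11e-05), peak 16 -0.74 (SE 0.17, adjusted p = 0.00185), peak 21 -0.43 (SE 0.09, adjusted p = 0.000442) and peak 32 -1.27 (SE 0.42, adjusted p = 0.0436), lost without replicate 2 (adjusted p = 0.123), without replicate 2 (adjusted p = 0.184), without replicate 2 (adjusted p = 0.132) and without replicate 1 or 2 (adjusted p up to 0.355). S1pr1 peak 3 was 1.28 (SE 0.33, adjusted p = 0.00559), Foxo3 peak 4 0.61 (SE 0.15, adjusted p = 0.00419) and Foxp1 peak 26 1.59 (SE 0.52, adjusted p = 0.0414), lost without replicate 1 (adjusted p = 0.41, 0.252 and 0.707). Calls were also lost for Foxp1 peak 32 with quantile normalization (adjusted p = 0.0632) and for Foxp1 peak 26 with a pseudocount of 8 (adjusted p = 0.0636) and the fit of the compared groups alone (adjusted p = 0.137). With the Dusp5 guide in Ttad, 2 of the 109 peaks (1.83%) were called, 1 higher and 1 lower, against 2.88% of all peaks called, 1.21% higher and 1.67% lower. These were Foxp1 peak 22 (0.35, SE 0.10, adjusted p = 0.0434) and Foxo1 peak 11 (-0.65, SE 0.17, adjusted p = 0.0211), lost without replicate 1 or 2 (adjusted p up to 0.397 and 0.219). Calls were also lost for Foxp1 peak 22 with edgeR (adjusted p = 0.0634) and the fit of the compared groups alone (adjusted p = 0.173) and for Foxo1 peak 11 with edgeR (adjusted p = 0.0678) and the fit of the compared groups alone (adjusted p = 0.231). edgeR on the recovered reads called 0 member peaks there, and 20 had an unadjusted limma p under 0.05.

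The guide effects were tested between ages over the 3 shared states. For Zfp219, 10 of the 109 peaks (9.17%) were called, 5 higher and 5 lower, against 9.11% of all peaks called, 4.09% higher and 5.01% lower. Besides the peaks above these were Klf3 peak 3, Foxo1 peak 16, Foxo3 peaks 1 and 4, Foxp1 peaks 8 and 11 and S1pr1 peak 13. The call was also lost for S1pr1 peak 13 with quantile normalization (adjusted p = 0.0541). For Dusp5, 3 of the 109 peaks (2.75%) were called, 1 higher and 2 lower, against 4% of all peaks called, 1.27% higher and 2.73% lower, namely Foxo1 peak 11, Foxp1 peak 19 and Cd69 peak 6.

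The order of Tprog above Tterm was also counted in the guide groups, leaving out Ttran and Ttad. The guide libraries are not in the OTC contrast, but they share the fit whose spread enters the OTC calls. All Tprog libraries lay above all Tterm libraries at 54 of 109 (49.5%) against 30% of all peaks in aged Zfp219 cells, and at 52 of 109 (47.7%) against 27.8% of all peaks in aged Dusp5 cells. In young cells this held at 62 of 109 (56.9%) against 27.3% of all peaks with Zfp219, and at 65 of 109 (59.6%) against 28.1% of all peaks with Dusp5. Of the members called higher in OTC Tprog of the same age, 25 of 34 were so ordered in aged Zfp219 cells (73.5%, against 83.9% of all such peaks), 28 of 34 in aged Dusp5 (82.4%, 78.2%), 42 of 48 in young Zfp219 (87.5%, 86.2%) and 44 of 48 in young Dusp5 cells (91.7%, 88.1%). Foxp1 gave 18 of 25 in aged Zfp219 and 19 of 25 in aged Dusp5 cells, and S1pr1 3 of 3 in both. Klf2 peak 4 was so ordered in all 4 guide groups. Foxo1 gave 0 of 2 in aged Zfp219 and 2 of 2 in aged Dusp5 cells. S1pr5 gave 0 of 1 in young Zfp219 and 1 of 1 in young Dusp5 cells.

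Other genes of the same pathways were taken from lists chosen with earlier results of these data known. The strongest peak of Ccr7, the chemokine receptor for lymph node entry, was 0.89 (SE 0.09, adjusted p = 2.86e-14) in young Tprog against Tterm, 0.22 (SE 0.10, adjusted p = 0.108) in aged Tprog against Tterm and 0.49 (SE 0.05, adjusted p = 3.51e-13) for aged against young.

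The sphingosine phosphate pathway (32 peaks of 13 genes, Plpp3 having no peak) split, with 4 higher and 2 lower in aged and 5 higher and 3 lower in young Tprog against Tterm, 4 higher and 8 lower by age and 7 higher and 4 lower with aged Zfp219. In that order 18.8%, 25%, 37.5% and 34.4% of its peaks were called, against 20.1%, 26.5%, 36.5% and 25.8% of all peaks. The strongest peak of Spns2, a sphingosine-1-phosphate exporter, was lower in Tprog at -0.88 (SE 0.14, adjusted p = 7.83e-07) in aged and -0.93 (SE 0.13, adjusted p = 1.10e-08) in young cells, and that of the receptor S1pr3 higher at 1.09 (SE 0.37, adjusted p = 0.0273) and 1.31 (SE 0.34, adjusted p = 0.00188). The other quiescence, forkhead and KLF genes had 124 peaks of 18 genes, Foxp3 having no peak. They had 11 higher and 16 lower in aged and 24 higher and 10 lower in young Tprog against Tterm. By age 33 were higher and 28 lower, and with aged Zfp219 15 were higher and 24 lower. In that order 21.8%, 27.4%, 49.2% and 31.5% of them were called, against 20.1%, 26.5%, 36.5% and 25.8% of all peaks. The strongest peak of Klf12 was higher in aged hosts at 1.35 (SE 0.15, adjusted p = 5.55e-13), and that of Slfn2, whose loss breaks T cell quiescence, lower at -0.60 (SE 0.06, adjusted p = 1.19e-15). The strongest peak of Sgk1, a kinase that phosphorylates FOXO factors, was -0.43 (SE 0.10, adjusted p = 0.000445) in young Tprog against Tterm.

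Peaks of 1 gene did not always move together over the 21 group means. The median Pearson's r between peaks of a gene with a mean of at least 20 was 0.64 for Klf3, 0.51 for S1pr1, 0.48 for Klf2, 0.44 for Foxp1, 0.33 for Cd69, 0.32 for Foxo3 and 0.00 for Foxo1, and -0.25 for the 1 pair of S1pr5. Among 44816 peaks of other genes, those most like each strongest peak over the 21 group means were Jak2 (r = 0.961) and Antxr1 (0.916) for S1pr1 peak 12, Glb1 (0.956) and Bbs10 (0.954) for Foxp1 peak 21, Topbp1 (0.929) and Zdhhc13 (0.921) for Klf3 peak 1, and Cyth1 (0.906) and Dennd4a (0.854) for Cd69 peak 5. For Foxo1 peak 6 they were Gpr135 (0.894) and Znrf1 (0.87), for Foxo3 peak 5 Madd (0.847) and Npc1 (0.844), for Klf2 peak 3 Lcp2 (0.808) and Tardbp (0.768), and for S1pr5 peak 2 Cep128 (0.791) and Snx11 (0.788). These are descriptions over groups that share age, state and library factors.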

How the data were processed

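ATAC-seq signal in 48 libraries was read from 1 table of the whole series. The deposited values are a signal normalized by the authors, as the table's own name says. They are read counts per peak divided by 1 factor per library, since whole reads were recovered for 100% of them within 0.01 reads. Bowtie2 2.2.9, Picard 2.8.0, MACS2 2.1.1, SAMtools 1.3.1, DESeq2 1.28.1 and the build mm10 are named, per the submitters' processing notes; how peaks were merged and whether cut sites were shifted is not given in the sources used here. mm10 is GRCm38: 50.05% of 21900 RefSeq protein-coding genes had a boundary inside a peak, against 7.94% and 8.06% after shifts of 5000 and 100000 bases. No column of the table was left out.

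Groups came from the sample titles, with A and Y read as aged and young. log2(value + 1) was fitted with limma 3.58.1 (R 4.3.3; lmFit, eBayes with a trend) over all 53868 peaks and 48 libraries with 21 group means, and 19 contrasts were adjusted by the Benjamini-Hochberg method over all peaks. Calls are two-sided, at an adjusted p under 0.05. This scale understates changes of weak peaks. Depth limits precision: the median library had 14691505 reads in peaks. The alternatives were edgeR 4.0.16 (quasi-likelihood, TMM) on recovered reads, a fit of the compared groups alone, a pseudocount of 8, quantile normalization, a replicate block, removal of the weakest 25% of peaks, and leaving out each replicate number. The scripts were tested on simulated data.

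The members and lists were chosen with earlier results of these data known. Named are the strongest and the start peak of each gene and, per comparison, up to 3 called peaks higher and 3 lower with the largest difference and a mean of at least 20. Klf2 peaks 1 and 4, S1pr1 peak 11, Foxo3 peak 4 and Cd69 peaks 6, 10 and 11 were added after their values were seen, as were the list genes named. So were values of a named peak in comparisons where the rule did not name it, and other called peaks named to identify a count. Klf2 peak 1, at a mean of 6.4, lies under the limit of 20. Marker lists were the CD8 T cell, CD4 T cell, B cell, myeloid, NK cell, melanoma, fibroblast and endothelial genes. Some genes of the lists, and the lists that turn on them, are not reported here.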

Additional observations from a re-analysis of the deposited data

Results flagged for a closer look

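Each difference here was called by limma in a test of the difference between ages itself (log2 scale, Benjamini-Hochberg adjusted p over all peaks). The Tprog minus Tterm difference in OTC cells was larger in aged than in young cells at Foxo1 peak 6, by 0.34 (adjusted p = 0.0422). It was smaller in aged cells at Foxp1 peak 25, with a difference of -2.0 (adjusted p = 0.00311), and at Cd69 peak 11, with -0.56 (adjusted p = 0.00087). These 3 of 109 peaks (2.75%) stand beside 2.32% of all peaks.

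The Zfp219 effect differed between ages at 10 of 109 peaks (9.17%, against 9.11% of all peaks). Aged minus young was 0.59 at Klf3 peak 3, 0.30 at Foxo1 peak 16, 0.43 at Foxo3 peak 1, 0.35 at Foxo3 peak 4 and 1.10 at S1pr1 peak 6. It was -0.33 at Foxp1 peak 8, -0.44 at Foxp1 peak 11, -0.85 at Foxp1 peak 43, -0.82 at S1pr1 peak 13 and -0.76 at Cd69 peak 10. The Dusp5 effect differed at 3 of 109 peaks (2.75%, against 4% of all peaks). The differences were 0.61 at Foxo1 peak 11, -0.72 at Foxp1 peak 19 and -0.63 at Cd69 peak 6. Of these 16 differences, 0 were called in every fit without 1 replicate number.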

How the results depend on the processing

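Counts of member peaks called in the 19 comparisons were at or below those with all libraries when a replicate number was left out of the groups compared. Without replicate 1 or 2, aged groups and young Tprog groups keep 1 library, assumed to vary like the others. For Tprog against Tterm the count was then 17 to 23 in aged OTC cells (37 with all libraries), 31 to 44 in young (52) and 0 to 3 for the difference between ages (3). For Ttran against Tprog it was 9 to 12 in aged (22) and 12 to 27 in young (29), and for Ttran against Tterm 1 to 4 (7) and 11 to 12 (20). For Ttad it was 1 to 3 against Tprog (9), 1 to 4 against Tterm (15) and 5 to 7 against Ttran (14). For age it was 32 to 40 (45). For Zfp219 it was 9 to 11 in aged (20), 1 to 2 in young (3), 3 to 3 in Ttad (9) and 2 to 6 between ages (10). For Dusp5 it was 6 to 6 in aged (12), 4 to 5 in young (7), 0 to 2 in Ttad (2) and 0 to 2 between ages (3).

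edgeR called 5 for the Tprog against Tterm difference between ages, 5 for young Zfp219, 5 for Dusp5 between ages and 0 for Dusp5 in Ttad. Fitting only the groups compared gave 5 for the Tprog against Tterm difference between ages, 3 for aged Ttran against Tterm, 4 for Ttad against Ttran and 0 for Dusp5 in Ttad, where quantile normalization gave 4. The cause was not tested, beyond the fewer samples of the smaller fits. Of 119 named values, 1 changed sign: Foxp1 peak 26 with aged Zfp219, at -0.126 without replicate 1 and 1.47 without replicate 2. edgeR lost 7 of the 119 calls, the smaller fits 19, quantile normalization 14 and a pseudocount of 8 lost 1; removing the weakest 25% of peaks lost 0 of 108.

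Libraries of the same replicate number did not deviate together: the correlation of deviations was -0.018 to 0.015 over pairs of groups, and 0 pairs exceeded 0.1. Such correlations cannot show whether libraries of the same number came from the same mice. With a replicate block the count for age was 36 (45 without), for aged Tprog against Tterm 37 and for young 52, and 2 of the 119 named calls were lost, S1pr1 peak 3 for Ttad against Tprog and Foxp1 peak 7 with aged Dusp5.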
